A study of Rattus norvegicus with 11 samples.

Results

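Chemokines, cytokines and their receptors were followed as a set of 43 rat genes, chosen by name among chemokine ligands, chemokine receptors, interleukins, interleukin receptors and colony-stimulating factors. A gene was matched through the current or an earlier symbol of its array probes, and where several probes matched, the one with the highest average across the 11 arrays stood for it. All 43 were found among the 16899 named genes of the array. A probe entered the tests only where its mean position within the arrays lay in the upper part of all probes (above the 50th percentile) in at least 1 group, and 33 of the 43 passed, with 11069 named genes in all. Levels below are log2 intensity of the authors' normalized values.

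The series measured messenger RNA by 1-colour array in rat cells that were given exosomes, the small vesicles released by cells, and in RNA of the exosomes and of tumour cells. The exosomes came from the rat pancreatic adenocarcinoma line AS or from ASTspan8, the same line expressing tetraspanin 8, a membrane protein of exosomes. The groups were EC (labelled endothelial cells) after ASTspan8 exosomes (2 arrays), EC after AS exosomes and EC control (1 array each), RF (labelled endothelial fibroblasts) after ASTspan8 exosomes, after AS exosomes and as control (1 array each), RNA of ASTspan8 exosomes (2 arrays), and ASML, another pancreatic adenocarcinoma line, with knock-down of the adhesion receptor CD44 and as wild type (1 array each). RPMI medium with serum and the selection drug G418 was used for every line, and the sources used here give neither the dose of exosomes nor the time of treatment. For the RF control array 1 label, its source, speaks of endothelial cell lines, while its title and cell type are those of RF.

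Chemokines are small secreted proteins that draw leukocytes along concentration gradients by binding receptors of the G-protein-coupled family. The CC family acts mainly on monocytes and lymphocytes, the CXC members of the Cxcl1 type act on neutrophils, and Cxcl10 and its relatives, induced by interferons, act on T cells. Inflammatory cytokines such as Tnf and the interleukins Il1a and Il1b switch on many of these genes in stromal cells through the transcription factor NF-kappaB, and cytokines of the Il6 type signal through the shared receptor chain Il6st and STAT factors.

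Several facts of the arrays bear on all values. The 2 EC arrays after ASTspan8 exosomes differed with an SD of 0.144 log2 over all probes tested, and no member was 2-fold apart between them, with the widest gap, 0.16, at Tslp. The 2 exosome arrays differed with an SD of 0.395, and the widest gap of a tested member was 0.69, at Il11. Nothing says that duplicate arrays came from separate cultures, so the p-values reflect spread between arrays that may be technical. Of 16 fibroblast markers, 13 or 14 lay above log2 9 on every EC and RF array, against 2 to 4 of 16 endothelial markers. The endothelial junction gene Cdh5 stayed between 7.87 and 8.36 there and the endothelial receptor Kdr between 6.26 and 6.68. Of the same list, Egfl7 (10.44 to 11.17), Eng (9.27 to 10.47) and Vwf (8.82 to 10.44) were higher there. Of 19 leukocyte markers 1 to 3 lay above log2 9 on any array, and Ptprc, which all leukocytes carry, lay between 6.18 and 6.31 on all 11. Cd14, of the same list, lay between 9.96 and 11.52 on all 11, and Itgam reached 10.30 in RF after ASTspan8 exosomes. Cd44 lay at 12.30 on the ASML array with the knock-down, against 13.56 in ASML wild type, by its probe with the highest mean, while 2 of its other probes were higher with the knock-down. In exosome RNA the Cd44 probe stood at 11.11 on the array numbered replicate 1 and at 6.02 on the unnumbered array.

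The 10 members that did not pass were Ccl3, Ccl4, Ccl11, Cxcl9, Cxcl11, Cxcl13, Cxcl14, Cxcr4, Il1b and Il18. They lay between 5.99 and 7.44 on all 11 arrays, near the lower limit of 5.96 to which the values were floored, except Cxcl9 on 1 array. Cxcl9 had 8.72 on the exosome array numbered replicate 1 and 6.57 on the unnumbered one, against 6.03 to 6.35 on the EC and RF arrays. Cxcr4, the signalling receptor for Cxcl12, stayed between 6.27 and 6.48 on all 11 arrays. For these 10 genes no group lay above the filter on average, and no test of a difference is reported.

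**Figure D1:**
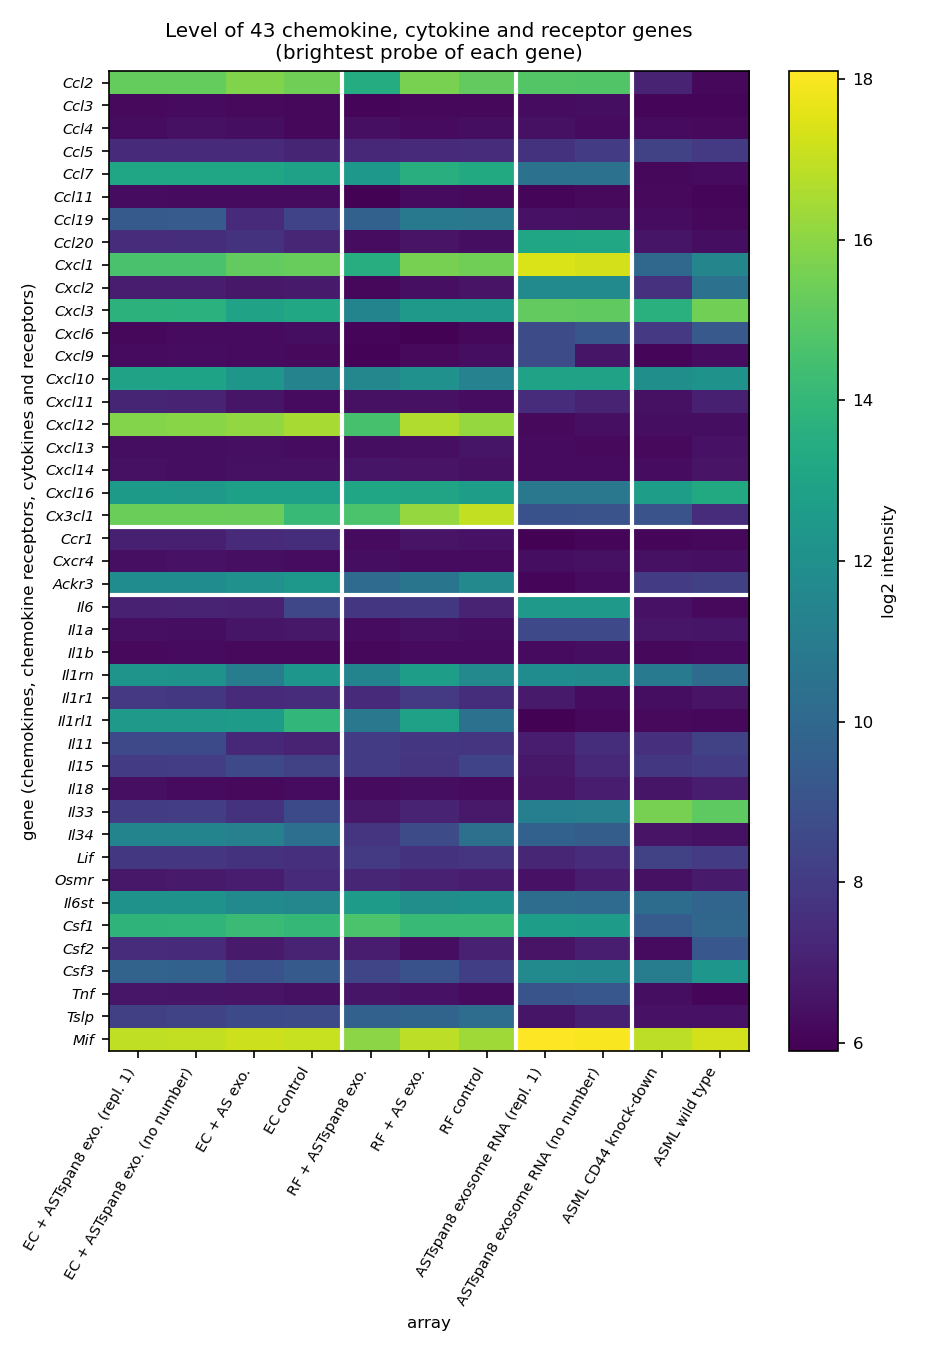
Level of each of the 43 genes (rows) on each of the 11 arrays (columns), as log2 intensity of the gene's brightest probe (colour scale). Cxcl12, Cx3cl1 and Il1rl1 are high on EC and RF arrays and low on exosome arrays, Ccl20, Il6 and Tnf have their highest values in exosome RNA, and Il33 has its highest values on the 2 ASML arrays.

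In EC, ASTspan8 exosomes went with higher Cxcl10, Il11, Cx3cl1, Il34 and Ccl19 and with lower Il1rl1 and Il6, each at least 2-fold apart from the control array. Of 33 members tested by limma in the fit of all 11 arrays, 15 passed an adjusted p of 0.05 (Benjamini-Hochberg over 18619 probes), 7 higher and 8 lower, where 24.1% of all probes tested passed, 12.1% higher and 12.0% lower. Of these 15, 7 were also at least 2-fold apart, where 3.34% of all probes were both. The median difference was -0.14 over the 33 members and -0.01 over all probes tested. Without 1 or the other of the 2 EC arrays that had ASTspan8 exosomes, no member passed in limma, and 13 and 14 members had an unadjusted p under 0.05. Without the filter on dim probes 7 members passed.

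In RF the same exosomes went with lower values only among the members that reached 2-fold. On 1 array against 1, with no test, 8 of 33 members were at least 2-fold lower after ASTspan8 exosomes than on the RF control array and 0 were at least 2-fold higher, where 9.17% of all probes were 2-fold apart, 4.53% lower and 4.64% higher. The 8 were Il34, Cx3cl1, Cxcl1, Ccl2, Cxcl12, Ackr3, Ccl19 and Cxcl3. Fibroblast markers moved with them: 9 of 15 tested were at least 2-fold lower (median difference -1.19), and the summed level of the list was 18.42 after ASTspan8 exosomes, 19.26 after AS exosomes and 19.64 on the RF control array. Their part in the result was not tested, and in such bulk RNA fewer cells of a type and less RNA per cell cannot be told apart.

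The effect of ASTspan8 exosomes itself differed between EC and RF for 15 of 33 members by limma, 11 with the higher effect in EC and 4 with the higher effect in RF, where 31.5% of all probes passed, 15.9% and 15.6% in these directions. A fit with additive terms for cell and exosome treatment over the 7 EC and RF arrays gave 0 members for ASTspan8 exosomes against control, where 0.00537% of all probes passed, and 7 members had an unadjusted p under 0.05. Without 1 of the 2 EC arrays given ASTspan8 exosomes, no difference between EC and RF passed, and 15 members had an unadjusted p under 0.05 in each case.

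**Figure D2:**
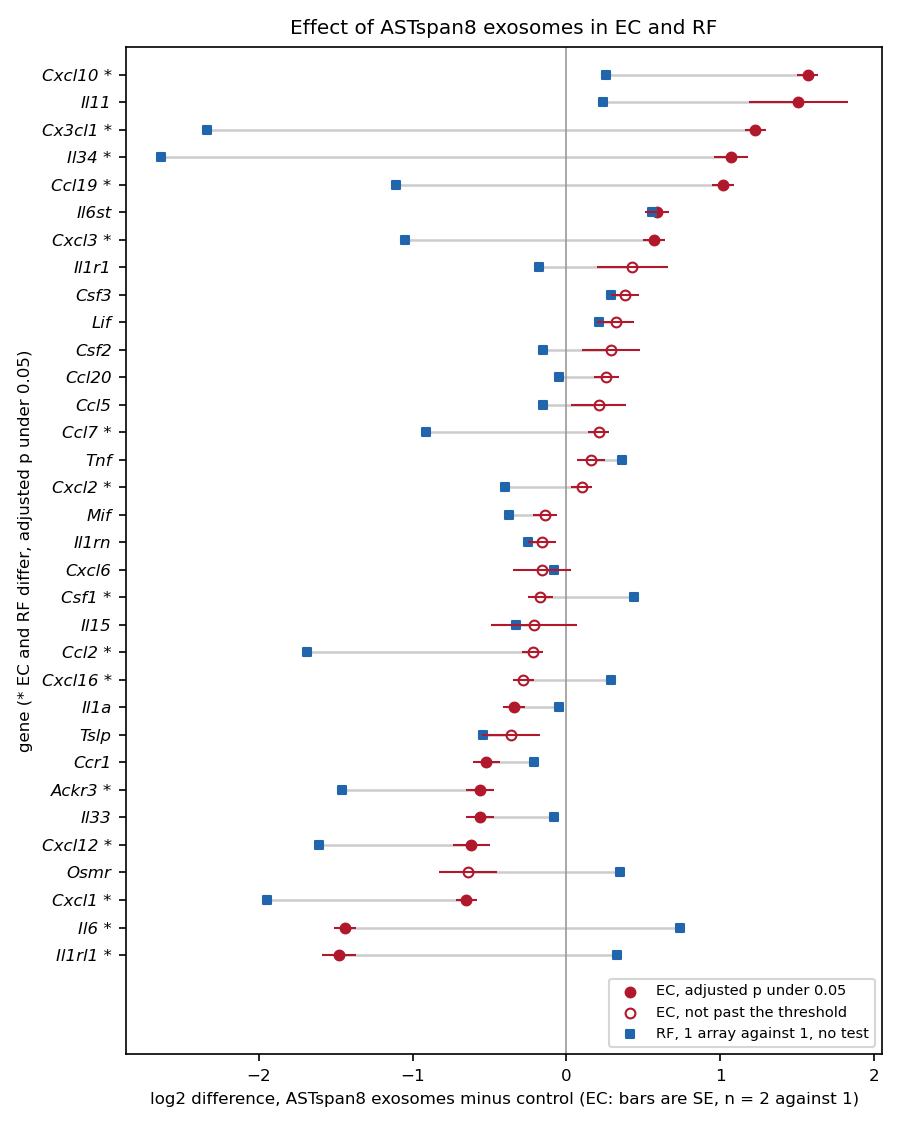
Difference of each of the 33 tested genes after ASTspan8 exosomes minus control, as log2, in EC (circles, bars are SE, n = 2 arrays against 1) and in RF (squares, 1 array against 1, no test). Cx3cl1 (1.23 in EC, -2.34 in RF) and Il34 (1.07 and -2.64) lie on opposite sides of 0, and asterisks mark the 15 genes whose effect differed between EC and RF.

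Cxcl10, the interferon-induced ligand of the T-cell receptor Cxcr3, had the largest rise in EC. It had 12.91 and 12.97 on the 2 EC arrays after ASTspan8 exosomes, 12.37 after AS exosomes and 11.37 on the EC control array. The ASTspan8 arrays thus lay above both others, with a rise over control of 1.57 ± 0.07 log2 (SE, n = 2 against 1; adjusted p = 0.0146 by limma) and over AS exosomes of 0.57 ± 0.07 (adjusted p = 0.0306 by limma). In RF it had 11.57 after ASTspan8 exosomes, 12.06 after AS exosomes and 11.31 on the control array. The ASTspan8 effect was higher in EC than in RF by 1.31 ± 0.11 (adjusted p = 0.0100 by limma). Its relatives Cxcl9 and Cxcl11, its neighbours on chromosome 14, did not pass the filter; Cxcl11 had 7.16 and 7.09 on the EC arrays after ASTspan8 exosomes, 6.60 after AS exosomes and 6.27 on the control array.

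Ccl19, a CC ligand that draws dendritic cells and T cells through Ccr7, was higher than control in EC after ASTspan8 exosomes and lower than control after AS exosomes. It had 9.36 and 9.38 on the EC arrays after ASTspan8 exosomes, 7.36 after AS exosomes and 8.35 on the control array. The rise was 1.02 ± 0.07 over control (adjusted p = 0.0158 by limma) and 2.01 ± 0.07 over AS exosomes (adjusted p = 0.0230 by limma). RF had 9.68 after ASTspan8 exosomes, 10.82 after AS exosomes and 10.79 on the control array, so that there the ASTspan8 array was the lowest. The effects differed by 2.13 ± 0.10 between EC and RF (adjusted p = 0.00886 by limma).

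Promoters of members were searched for sequences that known inflammatory factors bind, in RefSeq windows of the rat assembly GRCr8 that run from 250 bases before to 50 bases after the start of transcription. A window was held for 33 of the 43 genes (35 windows), and none is shown for Ccl2, Ccl3, Ccl4, Ccl5, Ccl11, Cxcl3, Csf1, Csf3, Il34 and Lif. The motifs, searched on both strands, were the core of the interferon response element (GAAA, any 2 bases, GAAA), bound by interferon regulatory factors, the kappaB site (GGGA, any 2 bases, TTCC), bound by NF-kappaB, the GAS core (TTCNNNGAA), bound by STAT factors, the AP-1 core (TGANTCA) and the CRE (TGACGTCA). The interferon response core was in the windows of Cxcl10, Ccl19 and Il6st, where 3.92% of all 33469 promoter windows held it. All 3 genes were among the 7 of 33 members that rose in EC, where 12.1% of all probes tested did. The match is a description and was not tested, and of these 7, Il34 and Cxcl3 have no window. In RF after ASTspan8 exosomes, Ccl19 was lower than control (-1.11), with 0.26 for Cxcl10 and 0.56 for Il6st. The kappaB letters were in the windows of Ccl7, Cxcl1, Cxcl6, Cxcl10, Cxcl11, Il6 and Tslp, where 1.30% of all windows held them. The GAS core was in those of Ccl7, Csf2, Cxcl9 and Cxcl11 (8.87% of all windows), the CRE in those of Il6 and Mif (1.83%), and the AP-1 core in 9 (7.33%). The 2 windows below are those of the CXC and the CC ligand that rose in EC with an interferon response core, Ccl19 being added after the matches were seen; capitals mark matches. Counted in bases from the start of transcription, Cxcl10 holds the interferon response core (GAAAGTGAAA) at -243, kappaB letters at -187, -128 and -127 and the AP-1 core at -96, and Ccl19 holds GAAAGTGAAA at -51. The kappaB matches at -128 and -127 overlap, since the letters are met on both strands.
Cxcl10, GRCr8 chr14:15988816-15989115, plus strand: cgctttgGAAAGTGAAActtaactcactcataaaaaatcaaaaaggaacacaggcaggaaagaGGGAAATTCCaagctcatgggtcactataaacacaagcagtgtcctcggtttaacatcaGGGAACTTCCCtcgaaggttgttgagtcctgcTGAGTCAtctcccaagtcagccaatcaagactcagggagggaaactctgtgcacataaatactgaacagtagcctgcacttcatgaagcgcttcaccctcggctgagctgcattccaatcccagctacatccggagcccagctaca
Ccl19, GRCr8 chr5:61761115-61761414, minus strand: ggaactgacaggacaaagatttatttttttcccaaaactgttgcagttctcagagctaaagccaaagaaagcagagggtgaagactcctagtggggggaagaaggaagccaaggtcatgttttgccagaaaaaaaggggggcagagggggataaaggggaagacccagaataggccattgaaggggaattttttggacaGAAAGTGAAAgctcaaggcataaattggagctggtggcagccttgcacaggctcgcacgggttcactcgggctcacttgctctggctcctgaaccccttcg

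Cx3cl1, the membrane-bound chemokine that tethers cells carrying Cx3cr1, moved in opposite directions in the recipient lines. It had 15.34 and 15.35 on the EC arrays after ASTspan8 exosomes, 15.31 after AS exosomes and 14.12 on the EC control array. RF arrays had 14.63 after ASTspan8 exosomes, 16.17 after AS exosomes and 16.97 on the control array. All 3 treated EC arrays thus lay above their single control array, and both treated RF arrays below theirs. The rise in EC after ASTspan8 exosomes was 1.23 ± 0.07 over control (adjusted p = 0.0146 by limma), with 0.04 ± 0.07 over AS exosomes (adjusted p = 0.759), and the difference between EC and RF was 3.57 ± 0.10 (adjusted p = 0.00855 by limma).

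Il34, a ligand of the macrophage receptor Csf1r, had the same arrangement. It had 11.41 and 11.42 on the EC arrays after ASTspan8 exosomes, 11.20 after AS exosomes and 10.35 on the control array, a rise over control of 1.07 ± 0.11 (adjusted p = 0.0199 by limma). In RF it had 7.76 after ASTspan8 exosomes, 8.69 after AS exosomes and 10.40 on the control array. The control arrays of EC and RF thus lay close together, and the arrays after ASTspan8 exosomes far apart. The effects differed by 3.71 ± 0.17 (adjusted p = 0.00885 by limma), the largest difference among the members. Csf1, the other ligand of that receptor, had 13.85 and 13.87 in EC after ASTspan8 exosomes, 14.20 after AS exosomes and 14.03 as control, against 14.63, 14.16 and 14.19 in RF in the same order. Its effects differed by -0.61 ± 0.11 (adjusted p = 0.0302 by limma), and in neither line did the ASTspan8 array stand 2-fold from control.

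Among the CC ligands of monocytes, Ccl2 and its chromosome 10 neighbour Ccl7 stood apart on 1 array. Ccl2, the main monocyte attractant, had 15.22 and 15.23 in EC after ASTspan8 exosomes, 15.80 after AS exosomes and 15.44 as control, against 13.46, 15.64 and 15.15 in RF in the same order. The RF array after ASTspan8 exosomes was the lowest of the 7 arrays, and the effects differed by 1.48 ± 0.10 between EC and RF (adjusted p = 0.00914 by limma). In EC, Ccl2 was 0.22 ± 0.07 lower than control after ASTspan8 exosomes (adjusted p = 0.0981) and 0.58 ± 0.07 lower than after AS exosomes (adjusted p = 0.0290 by limma). Ccl7, which shares receptors with Ccl2, had 13.12 and 13.10 in EC after ASTspan8 exosomes, 13.14 after AS exosomes and 12.90 as control, against 12.42, 13.62 and 13.33 in RF, and its effects differed by 1.12 ± 0.10 (adjusted p = 0.0106 by limma). Ccl5 stayed between 7.18 and 7.45 and Ccl20 between 6.30 and 7.70 on the 7 EC and RF arrays, and neither passed in EC.

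The neutrophil-attracting CXC genes Cxcl1, Cxcl2, Cxcl3 and Cxcl6, which lie within a few genes of each other on chromosome 14, did not move as a unit. Cxcl1 had 14.61 and 14.59 in EC after ASTspan8 exosomes, 15.18 after AS exosomes and 15.25 as control. It fell by 0.65 ± 0.07 against control (log2 difference -0.65, adjusted p = 0.0201 by limma) and by 0.58 ± 0.07 against AS exosomes (-0.58, adjusted p = 0.0310). Cxcl3 had 13.74 and 13.69 in EC after ASTspan8 exosomes, 12.93 after AS exosomes and 13.15 as control, and rose by 0.57 ± 0.07 over control (adjusted p = 0.0227 by limma) and by 0.79 ± 0.07 over AS exosomes (adjusted p = 0.0259). Its second probe did not pass the filter and gave -0.02 against control, and the call was lost with the mean of both probes. In RF both genes were lowest after ASTspan8 exosomes. Cxcl1 had 13.49 there, 15.62 after AS exosomes and 15.44 as control, and Cxcl3 had 11.41, 12.44 and 12.46 in that order. The EC and RF effects differed by 1.30 ± 0.11 for Cxcl1 (adjusted p = 0.0101 by limma) and by 1.62 ± 0.11 for Cxcl3 (adjusted p = 0.00914 by limma). Cxcl2 lay between 6.15 and 6.87 and Cxcl6 between 5.96 and 6.37 on the 7 arrays, too dim for a level in these cells, although the 0.50 ± 0.11 by which the Cxcl2 effects differed passed (adjusted p = 0.0395 by limma) and was lost with trend and robust eBayes (adjusted p = 0.196).

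The windows of Cxcl1 and Cxcl6, shown because both hold the same kappaB letters (in capitals) at nearly the same distance from the start (-84 and -88), belong to a gene at 14.59 to 15.25 in EC and to one near the floor there. They were added after the matches were seen. In each the match overlaps one on the other strand that is shifted by 1 base.
Cxcl1, GRCr8 chr14:17479272-17479571, minus strand: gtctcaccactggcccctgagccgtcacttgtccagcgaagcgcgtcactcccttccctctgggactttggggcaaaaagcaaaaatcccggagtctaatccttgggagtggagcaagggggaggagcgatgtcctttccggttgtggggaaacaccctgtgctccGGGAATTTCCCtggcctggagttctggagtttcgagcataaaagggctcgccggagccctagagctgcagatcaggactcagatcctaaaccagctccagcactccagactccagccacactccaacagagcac
Cxcl6, GRCr8 chr14:17596368-17596667, minus strand: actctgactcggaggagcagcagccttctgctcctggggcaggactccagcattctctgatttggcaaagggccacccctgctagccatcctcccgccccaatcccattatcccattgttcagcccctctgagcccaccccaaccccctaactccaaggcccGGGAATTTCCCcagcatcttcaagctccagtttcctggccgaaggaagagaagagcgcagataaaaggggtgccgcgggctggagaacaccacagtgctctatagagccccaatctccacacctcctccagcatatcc

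Cxcl12, which retains and recruits cells that carry Cxcr4, fell in EC and was lowest in RF after ASTspan8 exosomes. It had 15.84 and 15.91 in EC after ASTspan8 exosomes, 16.10 after AS exosomes and 16.49 as control, a difference from control of -0.62 ± 0.12 (adjusted p = 0.0380 by limma). Its second probe gave -0.06, and the call was lost with the mean of both (adjusted p = 0.0681). RF arrays had 14.57 after ASTspan8 exosomes, 16.65 after AS exosomes and 16.18 as control, and there the second probe moved alike (-1.36 against -1.61 by the first). The effects differed by 1.00 ± 0.18 between EC and RF (adjusted p = 0.0268 by limma). Cxcl16, the ligand of Cxcr6, stayed between 12.49 and 13.05 on the 7 arrays, with a difference of -0.57 ± 0.10 between the effects (adjusted p = 0.0285 by limma).

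Of the chemokine receptors, Ackr3, which binds and removes Cxcl12, was, like its ligand by the brighter probe, lower than control after ASTspan8 exosomes in both lines. It had 11.83 and 11.84 in EC after ASTspan8 exosomes, 12.05 after AS exosomes and 12.39 as control, a difference of -0.56 ± 0.09 from control (adjusted p = 0.0308 by limma). In RF it had 10.17 after ASTspan8 exosomes, 10.66 after AS exosomes and 11.63 as control. In RF after AS exosomes the 2 genes differed in direction, with -0.97 for Ackr3 and 0.47 for Cxcl12 against control. For Ackr3 the control array in both lines was the highest and the ASTspan8 arrays the lowest, and the effects differed by 0.91 ± 0.14 (adjusted p = 0.0205 by limma). Ccr1, a receptor of Ccl5 and Ccl7 on myeloid cells, had 6.95 and 6.97 in EC after ASTspan8 exosomes, 7.34 after AS exosomes and 7.48 as control, against 6.28 to 6.53 in RF. It was 0.52 ± 0.09 lower than control in EC (log2 difference -0.52, adjusted p = 0.0326 by limma), a call that was lost without the floor (adjusted p = 0.0505) and with trend and robust eBayes (adjusted p = 0.0740). Ccr1 passed the filter on dim probes only through the EC control and EC AS arrays, so that a lower value after ASTspan8 exosomes was favoured by the filter, and the call is no support for a fall.

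In the interleukin 1 family the receptor gene Il1rl1, whose protein binds Il33, had the widest spread over the EC and RF arrays. It had 12.51 and 12.52 in EC after ASTspan8 exosomes, 12.62 after AS exosomes and 13.99 as control. It had 10.80 in RF after ASTspan8 exosomes, 12.87 after AS exosomes and 10.47 as control. All treated EC arrays thus lay below control, while in RF the AS array alone stood above it. The fall in EC after ASTspan8 exosomes was -1.48 ± 0.11 (adjusted p = 0.0167 by limma), with -0.11 ± 0.11 against AS exosomes (adjusted p = 0.579), and the effects differed by -1.81 ± 0.17 (adjusted p = 0.0112 by limma). The second probe moved less, by -0.62 in EC after ASTspan8 exosomes and by 0.56 in RF after AS exosomes, against 2.40 by the first.

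Its ligand Il33, a nuclear alarm cytokine, had 8.02 and 8.13 in EC after ASTspan8 exosomes, 7.67 after AS exosomes and 8.63 as control, against 6.67, 7.13 and 6.75 in RF. The EC difference from control was -0.56 ± 0.09 (adjusted p = 0.0286 by limma), which was lost with the 7 EC and RF arrays alone (adjusted p = 0.0522). Il1rn, the secreted antagonist of interleukin 1 receptors, was lowest in EC after AS exosomes: it had 12.20 and 12.10 after ASTspan8 exosomes, 11.04 after AS exosomes and 12.31 as control. It was 1.11 ± 0.09 higher after ASTspan8 than after AS exosomes (adjusted p = 0.0246 by limma). RF arrays had 11.39 after ASTspan8 exosomes, 12.76 after AS exosomes and 11.64 as control, so that there the AS array was the highest. Il1r1, the signalling receptor, stayed between 7.34 and 7.96 and did not pass in EC (0.43 ± 0.23, adjusted p = 0.252). Il1a had 6.39 and 6.34 in EC after ASTspan8 exosomes, 6.60 after AS exosomes and 6.70 as control, a difference of -0.34 ± 0.07 (adjusted p = 0.0448 by limma) close to the floor that turned to 0.26 on its second probe, which did not pass the filter.

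In the interleukin 6 family the cytokine Il6 fell in EC and the cytokine Il11 rose. Il6 had 7.02 and 7.06 in EC after ASTspan8 exosomes, 7.01 after AS exosomes and 8.48 as control. All treated EC arrays lay together below the single control array, and the difference after ASTspan8 exosomes was -1.44 ± 0.07 (adjusted p = 0.0146 by limma), with 0.03 ± 0.07 against AS exosomes (adjusted p = 0.802). In RF it was the reverse, with 7.82 after ASTspan8 exosomes and 7.89 after AS exosomes, against 7.08 as control. The treated EC values and the RF control value of Il6 lay below the medians of their arrays, among dim probes. The effects of ASTspan8 exosomes differed by -2.18 ± 0.10 (adjusted p = 0.00885 by limma). Il11, a fibroblast cytokine of that family, had 8.61 and 8.65 in EC after ASTspan8 exosomes, 7.29 after AS exosomes and 7.12 as control. The EC arrays after ASTspan8 exosomes lay above both others, by 1.51 ± 0.32 over control (adjusted p = 0.0457 by limma) and 1.34 ± 0.32 over AS exosomes (adjusted p = 0.0699), with an SE set mainly by the gap of the exosome pair at this gene.

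Il6st, the signal-transducing receptor chain that these cytokines share, had 12.11 and 12.16 in EC after ASTspan8 exosomes, 11.73 after AS exosomes and 11.55 as control. It rose by 0.59 ± 0.08 over control (adjusted p = 0.0255 by limma) on its passing probe, while the second probe gave 0.04 and did not pass the filter. In RF it had 12.58 after ASTspan8 exosomes, 11.91 after AS exosomes and 12.02 as control, so that the ASTspan8 arrays were the highest in both lines, with effects that differed by 0.03 ± 0.13 (adjusted p = 0.912). Lif and Osmr, a ligand and a receptor of the family, lay between 7.55 and 7.98 and between 6.69 and 7.37 on the 7 arrays, and neither passed in EC.

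The windows of the 4 genes whose difference was the largest in a direction in EC or RF were chosen for display by rule. Cxcl10 is shown above, and Il34, lowest in RF, has no window, so that Cx3cl1 stands for it. Capitals mark the CRE at -162 and the kappaB match at -68 from the start of Il6; the windows of Cx3cl1 and Il1rl1 held none of the 5 motifs, which says only that these letters are not in these windows.
Il6, GRCr8 chr4:5894526-5894825, minus strand: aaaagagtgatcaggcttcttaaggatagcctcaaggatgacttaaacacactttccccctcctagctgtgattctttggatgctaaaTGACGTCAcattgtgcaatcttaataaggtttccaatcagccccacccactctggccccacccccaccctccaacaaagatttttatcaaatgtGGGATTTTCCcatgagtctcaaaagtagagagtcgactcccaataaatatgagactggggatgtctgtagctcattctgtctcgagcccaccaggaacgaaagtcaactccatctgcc
Cx3cl1, GRCr8 chr19:10242771-10243070, minus strand: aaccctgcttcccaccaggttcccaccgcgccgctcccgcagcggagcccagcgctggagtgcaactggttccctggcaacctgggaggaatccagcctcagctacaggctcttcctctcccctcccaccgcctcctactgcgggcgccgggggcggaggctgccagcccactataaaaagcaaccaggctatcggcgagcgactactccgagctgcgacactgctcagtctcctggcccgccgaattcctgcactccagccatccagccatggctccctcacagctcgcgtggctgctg
Il1rl1, GRCr8 chr9:50203388-50203687, plus strand: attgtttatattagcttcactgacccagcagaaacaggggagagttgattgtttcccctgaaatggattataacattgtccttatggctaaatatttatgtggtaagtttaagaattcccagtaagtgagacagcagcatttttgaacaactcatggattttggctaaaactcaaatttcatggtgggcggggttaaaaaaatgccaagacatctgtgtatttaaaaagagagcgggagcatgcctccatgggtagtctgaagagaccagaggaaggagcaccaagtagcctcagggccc

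The remaining cytokines changed little in EC after ASTspan8 exosomes as far as the test shows, and none passed against control. Csf3, the granulocyte factor, had 9.80 and 9.69 in EC after ASTspan8 exosomes, 8.98 after AS exosomes and 9.37 as control, and was 0.77 ± 0.09 higher after ASTspan8 than after AS exosomes (adjusted p = 0.0304 by limma). RF arrays had 8.43 after ASTspan8 exosomes, 8.97 after AS exosomes and 8.14 as control. Csf2 (6.36 to 7.44) and Tnf (6.25 to 6.66) stayed near the floor on the 7 arrays. Il15 lay between 7.79 and 8.58, Mif between 15.98 and 17.16 and Tslp, an epithelial-type alarm cytokine, between 8.23 and 10.25.

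AS exosomes alone were compared with control on 1 array against 1, with no test and with the same control array that serves ASTspan8 exosomes. In EC, 5 of 33 members were at least 2-fold apart, where 1.12% of all probes were, 0.0967% higher and 1.03% lower: Cx3cl1 (1.19) and Cxcl10 (1.00, at the limit) higher, and Il6 (-1.47), Il1rl1 (-1.37) and Il1rn (-1.27) lower. In RF, 3 of 33 were, where 2.16% of all probes were, 0.983% higher and 1.18% lower: Il1rl1 (2.40) and Il1rn (1.12) higher and Il34 (-1.71) lower. Il1rl1 and Il1rn were thus lower in EC and higher in RF after AS exosomes, a difference of -3.77 and -2.39 that was not tested.

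ASTspan8 against AS exosomes asks what the exosomes of the tetraspanin 8 line do beyond those of the parent line. In EC, Ccl19, Il1rn, Cxcl3, Csf3 and Cxcl10 were higher and Ccl2 and Cxcl1 lower after ASTspan8 exosomes, 7 of 33 members by limma, where 14.9% of all probes passed, 7.54% higher and 7.38% lower. Of the 7, Ccl19 and Il1rn were also at least 2-fold apart, where 2.15% of all probes were. All 7 calls were lost in a fit of the 7 EC and RF arrays alone, where 24 members had an unadjusted p under 0.05 and 0 passed (adjusted p = 0.0542 for Ccl19), and all were lost without 1 of the 2 EC arrays that had ASTspan8 exosomes. In RF, on 1 array against 1, 9 of 33 members were at least 2-fold lower after ASTspan8 than after AS exosomes and 0 at least 2-fold higher, where 9.87% of all probes were 2-fold apart, 5.57% lower and 4.30% higher. They were Ccl2 (-2.18), Cxcl1 (-2.13), Cxcl12 (-2.08), Il1rl1 (-2.07), Cx3cl1 (-1.54), Il1rn (-1.37), Ccl7 (-1.20), Ccl19 (-1.14) and Cxcl3 (-1.03). Fibroblast markers were at least 2-fold lower in 6 of 15 and higher in 1 in that comparison.

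Of 88 other cytokines, chemokines and receptors in a list of the same pathway, 79 were on the array and 46 were tested. In EC after ASTspan8 exosomes 7 rose and 9 fell against control, 16 of 46, where 24.1% of all probes passed, 12.1% higher and 12.0% lower. Il13ra2, a receptor that takes up Il13, had 10.09 and 10.12 after ASTspan8 exosomes, 9.42 after AS exosomes and 11.38 as control (-1.28 ± 0.27, adjusted p = 0.0461 by limma). Spp1, the secreted cytokine osteopontin, had 13.54 and 13.55, 13.40 and 14.74 in the same order (-1.20 ± 0.07, adjusted p = 0.0146 by limma), and Ccl27, a skin-type CC ligand, 9.90 and 9.89, 11.02 and 10.95 (-1.06 ± 0.10, adjusted p = 0.0181 by limma). Cx3cr1, the receptor of Cx3cl1, had 11.04 and 11.42 after ASTspan8 exosomes, 10.05 after AS exosomes and 10.14 as control, 1.09 ± 0.30 higher than control (adjusted p = 0.0786). In RF 2 of the 46 were at least 2-fold higher and 4 lower after ASTspan8 exosomes, where 9.17% of all probes were 2-fold apart. Tnfrsf11b, a decoy receptor of the Tnf family, had 9.12, against 11.28 after AS exosomes and as control, and Il11ra1, the receptor of Il11, had 12.11, against 12.66 after AS exosomes and 13.88 as control. Ifngr2, a chain of the interferon gamma receptor, was higher, with 13.26 after ASTspan8 exosomes, 12.28 after AS exosomes and 11.67 as control.

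Of 52 genes that carry cytokine signals inside the cell, 46 were on the array and 42 were tested. In EC after ASTspan8 exosomes 7 rose and 2 fell against control, 9 of 42, where 24.1% of all probes passed, and 9 rose and 0 fell against AS exosomes, where 14.9% did, 7.54% higher and 7.38% lower. Irf7, an interferon-induced transcription factor, had 12.11 and 12.17 after ASTspan8 exosomes, 10.79 after AS exosomes and 10.43 as control (1.71 ± 0.08, adjusted p = 0.0146 by limma), and Stat2, a transducer of interferon signals, 12.82 and 12.84, 11.80 and 11.59 in the same order (1.24 ± 0.07, adjusted p = 0.0146 by limma). Nfkbiz, an inhibitor-like partner of NF-kappaB that Il6 transcription uses in mouse, had 8.89 and 8.76, 9.22 and 10.11 (-1.29 ± 0.09, adjusted p = 0.0164 by limma). In RF 6 of the 42 were at least 2-fold higher and 2 lower after ASTspan8 exosomes, where 9.17% of all probes were 2-fold apart. Irf7 had 12.64 there, against 10.71 after AS exosomes and 11.07 as control, and Stat2 had 13.14, against 12.20 and 11.97. Nfkbiz had 7.87, against 9.48 after AS exosomes and 9.13 as control, and Cebpd, a transcription factor of the acute phase, had 13.56, against 15.37 on both other RF arrays. Irf7 and Stat2 were thus higher, and Nfkbiz lower, than on the control array in both lines after ASTspan8 exosomes, while Cebpd in EC had 15.42 and 15.43 after ASTspan8 exosomes, 14.40 after AS exosomes and 15.35 as control.

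Whatever the treatment, EC and RF differed in the level of a few members. In the additive fit of the 7 arrays 5 of 33 members passed by limma, 4 higher and 1 lower in EC, where 8.52% of all probes did, 5.09% higher and 3.44% lower. Ackr3 (1.31 ± 0.19, adjusted p = 0.0196), Il33 (1.29 ± 0.24, adjusted p = 0.0368), Ccl20 (1.08 ± 0.12, adjusted p = 0.00988) and Ccr1 (0.81 ± 0.11, adjusted p = 0.0192) were higher in EC. Ccr1 had passed the filter through EC arrays only, which favoured that direction. Ccl20 (6.30 to 6.52 in RF) and Il33 (6.67 to 7.13 in RF) passed it in no RF group, so their RF values are those of dim probes. Tslp was lower in EC, with 8.23 to 8.67 on 4 EC arrays against 9.71 to 10.25 on 3 RF arrays (-1.40 ± 0.12, adjusted p = 0.00612). Without 1 of the 2 EC arrays that had ASTspan8 exosomes, 1 of the 5 calls was made. All 4 EC arrays lay above all 3 RF arrays for 9 of 33 members, where 10.7% of all probes did, and below them for 2, where 14.2% did. Among the 9, Cxcl2 and Cxcl6 were too dim for a level in these cells. Ccr1 was favoured by the filter, and Ccl20 and Il33 were dim in RF. The count is thus no support for an excess in EC.

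RNA of ASTspan8 exosomes held the messages of many of these genes, and it was set against ASML wild type, a different donor line, since AS cells themselves were not analysed here. The line and the material, vesicle RNA against cell RNA, differ together here and cannot be told apart. Of the epithelial markers 15 of 15 were lower in exosome RNA than in ASML wild type by limma, and Epcam had 6.28 and 6.18 in exosome RNA, against 14.24 in ASML wild type. Not all of them were near the floor in exosome RNA. Krt19 had 13.54 and 13.60, against 15.56, Elf3 had 10.59 and 10.72, against 13.44, and Tspan8 had 10.16 and 10.28, against 13.80. Of 33 members, 25 passed, 16 higher and 9 lower in exosome RNA, where 65.6% of all probes passed, 28.1% higher and 37.5% lower. Tnf and Il1a, counted among the 16, passed the filter on dim probes through the exosome arrays alone. They were thus bound to differ there and are no support for an excess.

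The largest excess in exosome RNA was that of ligands. Ccl2 had 14.84 and 14.81 in exosome RNA, against 6.15 in ASML wild type (8.68 ± 0.07, adjusted p = 7.08e-05 by limma). Ccl20, the ligand of Ccr6, had 13.13 and 13.22, against 6.33 (6.85 ± 0.08, adjusted p = 7.08e-05), and Il6 had 12.47 on both arrays, against 6.21 (6.26 ± 0.07, adjusted p = 7.08e-05). Each of these 3 lay near the floor in ASML wild type. Cxcl1 had 17.40 and 17.33, against 11.44 (5.93 ± 0.07, adjusted p = 7.08e-05 by limma), and Ccl7 had 10.50 and 10.46, against 6.26 (4.22 ± 0.07). Tnf, for which the filter favoured a higher value, had 9.08 and 9.21, against 6.13 (3.02 ± 0.09). Il34 (3.17 ± 0.11), Csf1 (2.75 ± 0.08), Il1a (2.01 ± 0.07), Il1rn (1.57 ± 0.09), Cx3cl1 (1.56 ± 0.07), Cxcl2 (1.22 ± 0.07), Cxcl10 (0.78 ± 0.07), Mif (0.77 ± 0.08), Ccl19 (0.31 ± 0.07) and Il6st (0.30 ± 0.08) were also higher. Ccl19, counted among the higher members, lay near the floor in exosome RNA and in ASML wild type. It passed the filter only through EC and RF arrays, and its call is no support for an excess. The second Il6st probe gave 0.03 and did not pass the filter.

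Il33 was the member with the largest deficit in exosome RNA, with 11.16 and 11.22, against 15.08 in ASML wild type (-3.89 ± 0.09, adjusted p = 0.000118 by limma). Cxcl16 had 10.79 and 10.77, against 13.33 (-2.55 ± 0.07, adjusted p = 0.000165 by limma), and Csf2, the granulocyte-macrophage factor, had 6.53 and 6.93, against 9.19 (-2.46 ± 0.19, adjusted p = 0.00141 by limma). The exosome values of Csf2 are near the floor. Csf2 passed the filter on dim probes only through ASML wild type and EC after ASTspan8 exosomes. Ackr3 (-2.00 ± 0.09), Il11 (-1.16 ± 0.32), Il15 (-1.03 ± 0.28), Lif (-0.74 ± 0.12), Csf3 (-0.67 ± 0.09) and Cxcl3 (-0.34 ± 0.07) were lower by smaller amounts.

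Set beside the recipient cells, exosome RNA was higher than all 7 EC and RF arrays for 12 of 33 members, where 26.2% of all probes were, and lower than all 7 for 14, where 27.1% were. Of the lower ones, Ccl19, Cxcl12, Il1r1, Il1rl1 and Tslp passed the filter on dim probes only through EC and RF arrays, and Ccr1 only through EC arrays. Of the higher ones, Il1a and Tnf passed it through the exosome arrays alone. The filter favoured the place of these members in the counts, which is no support for a difference. Cxcl2 and Cxcl6, also among the higher ones, passed the filter through exosome and ASML arrays and in no EC or RF group. Ackr3 and Il15, among the lower ones, passed it in EC, RF and ASML groups and not in exosome RNA. On the side that did not pass, their values are those of dim probes. Exosome RNA was higher than all 9 other arrays for 7 members, where 15.5% of all probes were: Ccl20, Cxcl1, Cxcl2, Il6, Il1a, Tnf and Mif. The second Il1a probe, which did not pass the filter, had 6.55 and 6.95 in exosome RNA, against 6.92 in ASML wild type. For Ccl20 both exosome arrays lay above 13, against 7.45 and 7.48 in EC after ASTspan8 exosomes and 6.30 in RF after them. For Il6 the exosome arrays had 12.47, against 7.02 and 7.06 in EC and 7.82 in RF after ASTspan8 exosomes, and the EC control array, with 8.48, lay above the treated ones. The stromal genes Cxcl12 (6.21 and 6.41), Il1rl1 (5.96 and 6.17) and Ackr3 (6.13 and 6.27) were near the floor in exosome RNA, against values above 10 on every EC and RF array.

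**Figure D3:**
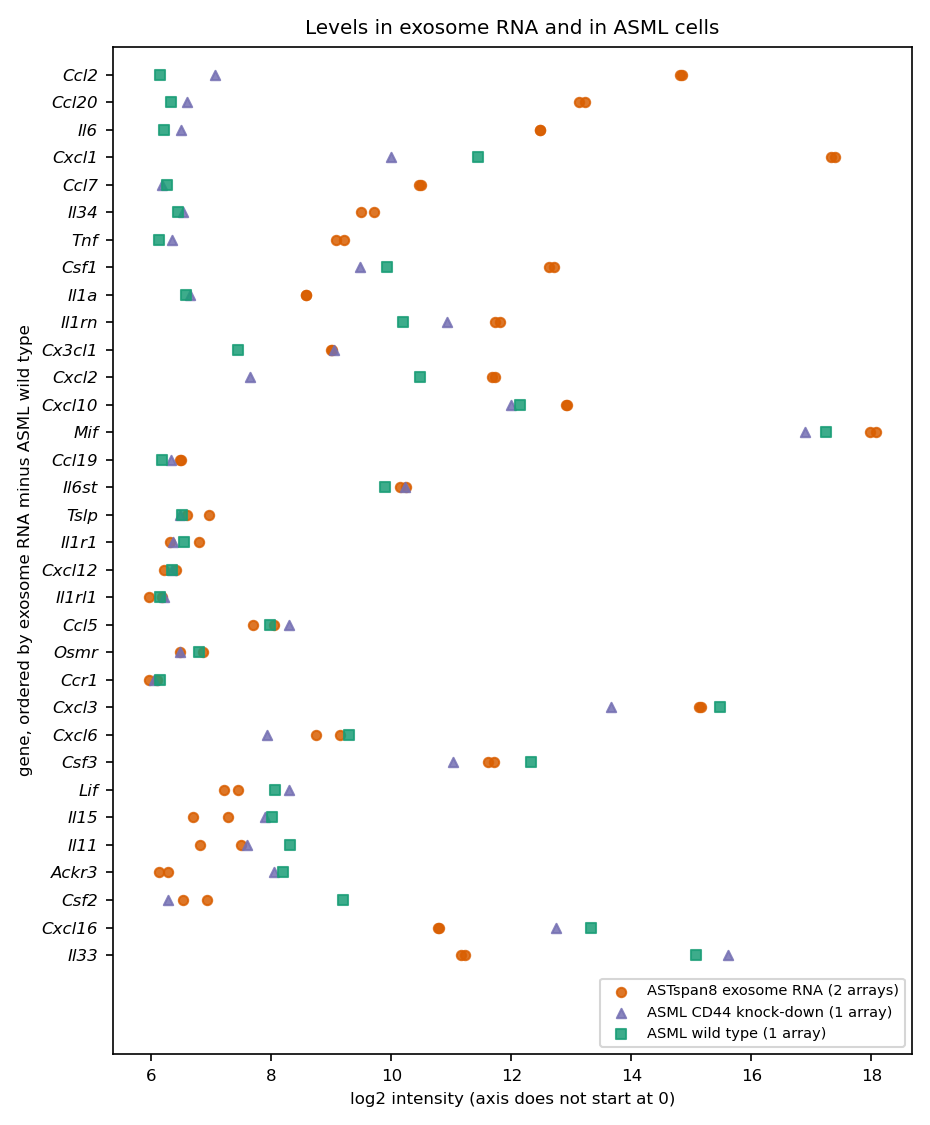
Levels (log2 intensity, axis not starting at 0) of the 33 tested genes on the 2 ASTspan8 exosome arrays, the ASML array with CD44 knock-down and the ASML wild-type array, a point per array, ordered by exosome RNA minus ASML wild type. Ccl2, with 14.81 and 14.84 in exosome RNA and 6.15 in ASML wild type, is at the top, and Il33 at the bottom.

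In ASML the knock-down of CD44 was compared with wild type on 1 array against 1, with no test. Of 33 members 7 were at least 2-fold apart, 6 lower and 1 higher, where 19.1% of all probes were, 9.39% lower and 9.66% higher, so that the share of members was close to that of all probes. Cxcl2 had 7.65 with the knock-down, against 10.48 in wild type (-2.83), and Cxcl3 had 13.66, against 15.48 (-1.82). Cxcl1 had 10.00, against 11.44 (-1.44), and Cxcl6 had 7.93, against 9.30 (-1.37), so that all 4 genes of the chromosome 14 cluster were lower. Csf2 had 6.27, near the floor, against 9.19 (-2.92), and Csf3 had 11.03, against 12.33 (-1.30), while Csf1 had 9.47, against 9.92 (-0.45). Of the 2 ASML arrays, Csf2 passed the filter on dim probes in wild type alone. Cx3cl1 alone was 2-fold higher, with 9.04, against 7.44 (1.60).

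Of the other cytokines and receptors, 6 of 46 were at least 2-fold higher and 8 lower with the knock-down, where 9.66% of all probes were higher and 9.39% lower. Il24, a cytokine of the Il10 family, had 12.50, against 15.45 in wild type, and Ppbp, another neutrophil-attracting CXC ligand, had 8.14, against 11.01. Kitlg, the ligand of the receptor Kit, was higher, with 9.73, against 6.16. Of the signalling genes 5 of 42 were at least 2-fold higher and 9 lower, beside the same shares of all probes. The lower ones included the NF-kappaB family members and regulators Bcl3 (8.92 with the knock-down, against 12.09), Nfkbie (8.41 against 10.81), Nfkb2 (9.87 against 12.18) and Birc3 (7.86 against 9.52), while the kinase Ikbke had 10.40, against 7.32. Irak3 was higher too, with 11.20, against 9.33. The family members Nfkb1 (9.05 against 8.97) and Rela (11.20 against 11.18) lay at nearly the same level on both arrays. Epithelial markers were at least 2-fold lower in 8 of 15 with the knock-down (median difference -1.16), and their part in these differences was not tested.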

How the data were processed

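The arrays were 1-colour Agilent arrays (dye Cy3 per the labels, whose label protocol speaks of biotinylated cRNA) of total RNA extracted with Trizol and cleaned on columns. The file deposited by the authors holds linear intensity that had been normalized across arrays, and the sources used here do not give the method; array medians lie between 7.29 and 7.37 log2. Intensities were floored at the 1st percentile (62.25, which raised 0.82% of values) and log2 transformed. Of 30367 probes, 20369 had a gene symbol and 9998 had none. Symbols were updated with RefSeq names of GRCr8 (17245 probes through their accession, 2561 through the current symbol and 551 through a synonym with 1 owner, while 12 stayed as they were). A probe was kept where its mean percentile within the arrays was above 50 in at least 1 of 9 groups (18619 kept, 11748 removed).

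Groups came from the labels. limma 3.58.1 in R 4.3.3 (lmFit, eBayes, two-sided, Benjamini-Hochberg over all 18619 probes at 0.05) was fitted to all 11 arrays with 9 group means and 2 residual degrees of freedom, where single arrays are assumed to vary like the duplicated groups. The additive fit of cell type and treatment used the 7 EC and RF arrays, with 3. The script was tested on simulated data. Pairs of single arrays were given no test, only a count of members at least 2-fold apart. EC after ASTspan8 and after AS exosomes share the single EC control array, likewise in RF. The members, the lists of related genes, signalling genes and markers, and the motifs were chosen with earlier results of these data known. All members may be named. Of the other pathway genes, up to 6 per list with the largest difference in a comparison were named, and of the markers the defining ones with some of the highest. Nfkb1 and Rela were named besides for the knock-down of CD44. The number of arrays limits the precision.

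Alternatives were quantile normalization, leaving the dim probes in, a stricter filter (75th percentile), no floor, trend and robust eBayes, the 7 EC and RF arrays alone, averaging all probes of a gene, fold thresholds of 1.5 and 3, and leaving out each duplicate array.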

Additional observations from a re-analysis of the deposited data

Results flagged for a closer look

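The effect of ASTspan8 exosomes against control differed between EC and RF for 15 members (limma, adjusted p between 0.00855 and 0.0395); the differences are EC effect minus RF effect, in log2. The effects had opposite signs, with an EC effect that passed, for Cx3cl1 (difference 3.57; 1.23 in EC, -2.34 in RF), Il34 (3.71; 1.07 and -2.64), Ccl19 (2.13; 1.02 and -1.11), Cxcl3 (1.62; 0.57 and -1.05), Il6 (-2.18; -1.44 and 0.74) and Il1rl1 (-1.81; -1.48 and 0.33). The signs also differed for Ccl7 (1.12; 0.21 and -0.91), Cxcl2 (0.50; 0.10 and -0.40), Csf1 (-0.61; -0.17 and 0.44) and Cxcl16 (-0.57; -0.28 and 0.29). In these the EC effect did not pass, so opposite directions are not shown, and Cxcl2 was too dim for a level. The effects had the same sign, with the greater fall in RF, for Ccl2 (1.48; -0.22 and -1.69), Cxcl1 (1.30; -0.65 and -1.95), Cxcl12 (1.00; -0.62 and -1.61) and Ackr3 (0.91; -0.56 and -1.46), and with the greater rise in EC for Cxcl10 (1.31; 1.57 and 0.26). The EC effect of Ccl2 did not pass. Il6 lay among dim probes on the treated EC arrays and on the RF control array. All RF effects rest on 1 array against 1.

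After AS exosomes, 2 members were at least 2-fold apart from control in opposite directions in EC and RF. The differences between the effects, -2.39 for Il1rn (-1.27 in EC, 1.12 in RF) and -3.77 for Il1rl1 (-1.37 in EC, 2.40 in RF), were not tested, since each rests on 4 single arrays.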

How the results depend on the processing

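No member called in any fit changed its direction under an alternative, and quantile normalization, no floor and the mean of a gene's probes moved no count of members by over 1.5 times. For EC after ASTspan8 exosomes against control, 15 members became 7 without the filter on dim probes, and leaving out 1 array gave 0 to 15, with 0 for each of the 2 EC arrays after ASTspan8 exosomes. Against AS exosomes, 7 members became 0 without the filter, 13 with a filter at the 75th percentile, 13 with trend and robust eBayes, 0 with the 7 EC and RF arrays alone, and 0 to 0 on leaving out each of the 4 duplicate arrays. The 15 differences between EC and RF became 0 to 18, the 25 members of exosome RNA against ASML wild type 19 to 26, and the 5 members of EC against RF 1 to 1 on leaving out 1 array. A threshold of 1.5-fold in place of 2-fold gave 8 members for AS exosomes in EC, 9 for AS exosomes in RF and 11 for CD44 knock-down. A threshold of 3-fold gave 0 for AS exosomes in EC, 5 for ASTspan8 exosomes in RF against control and 4 against AS exosomes, and 4 for CD44 knock-down. No paired analysis was possible because the groups compared share fewer than 2 replicate numbers. The calls in EC need both duplicate arrays, members near the floor have no reliable order, and 1 array per RF and ASML condition leaves no error of their own.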
